A study of Mus musculus with 8 samples.

Results

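The Hoxc cluster is a row of 9 homeobox genes on mouse chromosome 15: Hoxc4, Hoxc5, Hoxc6, Hoxc8, Hoxc9, Hoxc10, Hoxc11, Hoxc12 and Hoxc13. Its probes were taken from promoter arrays of Flag-tagged HoxB4 wherever the arrays' annotation names one of these genes. That rule found 319 probes for 8 of the 9 genes, out of 474323 probes on both arrays, and all 319 lay on array 2. No probe was named for Hoxc4, so it was not analysed here. The rule uses names alone and no measured value.

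The arrays compared the DNA that an anti-Flag immunoprecipitation brought down (Flag-IP) with input DNA, which asks where on promoters HoxB4 was found. The cells came from the mouse embryonic stem cell line B6N-22UTR. They were grown for 6 days as embryoid bodies, and the c-Kit+CD41+ blood precursors were then placed on OP9 cells, a stromal line that supports blood formation, and given a retrovirus carrying 3xFLAG-HoxB4. At day 12 of that coculture c-Kit+ cells were collected by magnetic sorting, so the HoxB4 measured is a tagged, overexpressed protein in sorted progenitors. The 2 promoter arrays carry different probes, each probe has 1 sample, and there is no replicate. No array of cells without the tag was among those analysed, and input was the only reference. The 6 expression arrays of the series (the groups HoxB4, iHoxB4 and MigR1, 2 each) were not used, since no table pairs their probe sets with genes. DNA values give no RNA level, so the labelled cell type could not be checked against marker genes.

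Hox proteins are transcription factors that give cells along the body axis their position, and many also act in blood cells. Genes at the 3′ end of a cluster are switched on earlier and farther forward in the embryo than those at the 5′ end. Clusters that are not in use are typically held silent by Polycomb proteins. HoxB4 belongs to the Hoxb cluster and is known for expanding blood stem cells in culture. Hox proteins share a similar homeodomain and bind short AT-rich sites, often with Pbx and Meis partners.

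Each value below is the log2 ratio of Flag-IP to input for 1 probe, after the median of its array was subtracted, so that 0 is the typical probe and 1 is a 2-fold higher ratio. A window is the median of 3 neighbouring probes, and windows at 1 or above, or at -1 or below, are called high or low. These levels are fixed folds, not tests: with 1 sample for each probe no p-value is given. The error printed with a probe is the scanner software's own error on its log2 ratio, which covers measurement on a single array and not variation between cultures. Positions are those of the deposited annotation on chromosome 15; the genome build behind them was not given in the labels or files used here. Distances to gene starts are also the annotation's.

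Besides the protein genes, the cluster holds noncoding genes that RefSeq (GRCm38.p6) places between or inside the measured ones. Mir196a-2 lies between Hoxc10 and Hoxc9, the genes with the highest windows of the cluster in the main measure, and Mir615 lies inside Hoxc5. The mature forms from RefSeq are shown because both hairpins sit within the stretch described here. Capitals mark the seed, bases 2 to 8.
mmu-miR-196a-5p: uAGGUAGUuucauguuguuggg
mmu-miR-196a-2-3p: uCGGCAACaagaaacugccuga
mmu-miR-615-5p: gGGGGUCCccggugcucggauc
mmu-miR-615-3p: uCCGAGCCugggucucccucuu
The 4 seeds are all different. miR-196a is known for targeting Hox transcripts, Hoxb8 among them.

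Along the cluster, high windows were found in a few narrow places and not across the whole row of genes. The places lay in front of Hoxc10, Hoxc9 and Hoxc5 and behind Hoxc12, each more than 500 bp from the start of its gene. With input as the only reference, they are not shown to be sites of HoxB4 binding. Hoxc13, Hoxc11, Hoxc8 and Hoxc6 had no high window when probes were assigned by gene symbol. The 319 probes had a median of 0.07, quartiles of -0.43 and 0.50, and a range of -2.63 to 2.23. They were less spread than the array as a whole, with an SD of 0.74 over Hoxc probes against 0.89 over all probes of array 2.

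Of the 305 windows of Hoxc genes, 14 (4.59%) were high, against 6.44% of the 425939 windows on both arrays. A total of 10 Hoxc windows (3.28%) were low, against 11.6% of all windows. A highest window of at least 1 was found in 4 of the 8 genes, against 42.6% of the 16684 genes with windows, and a lowest window of at most -1 in 3 of the 8, against 54.4% of genes. How the Hoxc share of high windows stands to that of all windows depends on the processing: it was 0.984% against 8.82% with normexp background correction, 2.30% against 5.90% with the mean of 3 probes in place of the median, and 6.56% against 4.07% with the trend of the ratio with brightness removed. Neither share was tested. A gene's highest and lowest window also depend on how many windows it has, 22 to 51 in the Hoxc genes against a median of 25 over all genes, which the comparisons of genes and the ranks below do not take into account. Windows overlap and share probes, so their counts are not counts of separate sites.

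**Figure D1:**
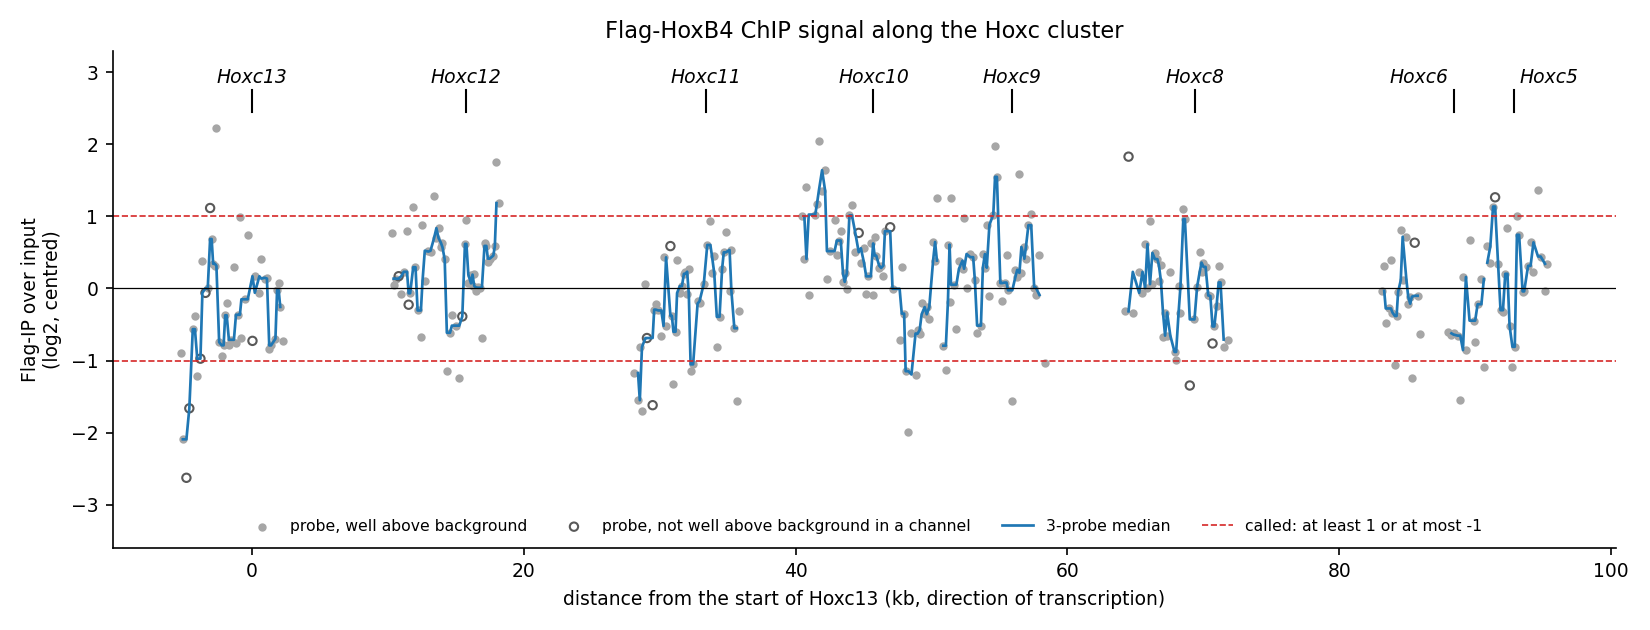
Flag-IP over input (log2, centred on the array median) for the 319 Hoxc probes, against distance in kb from the start of Hoxc13 in the direction of transcription. Points are probes, with open circles for the 19 that were not well above background in a channel, the line is the 3-probe median, dashed lines mark 1 and -1, and ticks mark gene starts; the line passes 1 before Hoxc10, Hoxc9 and Hoxc5 and behind Hoxc12.

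Hoxc10, a gene of the hindlimb and lumbar region, had the highest window of the cluster in the main measure. Its highest window reached 1.64, at chr15:102790861-102791367, centred 3781 bp before its start, in the interval that follows Hoxc11. The 3 probes read 2.05 ± 0.28, 1.36 ± 0.25 and 1.64 ± 0.26 (scanner error), and their Flag-IP signals of 4399, 1247 and 1926 stood against input signals of 1011, 463 and 589. All 3 were above 1 by more than their error. The window was higher than the highest window of 90.6% of genes, though Hoxc10 has 51 windows.

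That window was part of a stretch of 6 high windows and 8 probes that ran over 1551 bp, chr15:102789947-102791497, the longest in the cluster. It was not even: the 8 probes had a median of 1.26, and the lowest of them, at -0.09, lay among higher neighbours. A second, weaker stretch of 2 high windows lay at chr15:102792907-102793591 and peaked at 1.01, which is at the call level within the error of 1 probe. Hoxc10 thus held 8 of the 14 high windows. The 29 probes before its start had a median of 0.56, the highest of the 8 genes, and the 24 after it had a median of -0.10.

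Inside Hoxc10 the ratio turned low. A stretch of 3 low windows at chr15:102797130-102798023 reached -1.19, centred 2795 bp behind the start, where 2 of the 3 probes of the lowest window were below -1, the middle value being -1.19 ± 0.30 and the highest -0.62 ± 0.23. None of them was dim. At the start itself 5 of 6 probes within 500 bp were above 0, and their mean of 0.36 ± 0.30 (SD over 6 probes) was the highest near-start mean of the cluster.

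Hoxc9, which takes part in patterning the thoracic region, had the next highest window, 1.55, at chr15:102803692-102804002, centred 1221 bp before its start. The 3 probes read 1.03 ± 0.23, 1.97 ± 0.28 and 1.55 ± 0.26, with Flag-IP signals of 5520, 3162 and 1489 against input signals of 2585, 768 and 485. It was higher than the highest window of 87.9% of genes and belonged to a stretch of 3 high windows over 865 bp, chr15:102803399-102804263. The difference of 0.09 from Hoxc10 was smaller than the error of either median probe (0.26 each), so the order of these genes is not settled.

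At the start of Hoxc9 the pattern was different. The 5 probes within 500 bp read 0.47, -0.02, -1.56, 0.26 and 0.16, with a mean of -0.14 ± 0.81 (SD, n = 5 probes). A single probe centred 48 bp behind the start, at -1.56 ± 0.41, set this mean below 0.

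The interval between the Hoxc10 and Hoxc9 starts is 10.2 kb and was nearly fully tiled. A transcript named only by an Ensembl identifier starts in it, and 5 probes lie within 500 bp of that start. They ranged from -0.56 to 0.98, with a mean of 0.22 ± 0.56 (SD, n = 5 probes), and gave no high window. The annotation gives that transcript no gene name. In RefSeq order, Mir196a-2 is the gene in this interval.

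Hoxc12, one of the most 5′ genes of the cluster, reached 1.18 at chr15:102767014-102767340, centred 2276 bp behind its start, which the annotation classes as downstream of the gene. Its probes read 0.58 ± 0.22, 1.75 ± 0.27 and 1.18 ± 0.28. The call rests on 1 window at the edge of the tiled region, and no probe named for the cluster covers the next 9.91 kb. RefSeq places Hotair, a long noncoding RNA known from human cells for its link to Polycomb, between Hoxc12 and Hoxc11. Before its start Hoxc12 had a median of 0.20 over 30 probes and no high window.

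Hoxc5, the most 3′ of the measured genes, reached 1.14 at chr15:102840259-102840656, centred 1558 bp before its start and 2888 bp behind that of Hoxc6. The probes read 0.36 ± 0.22, 1.14 ± 0.23 and 1.27 ± 0.35, and the last was not well above background in a channel. This call was lost when such probes were left out, where the highest Hoxc5 window was 0.75. Across the Hoxc5 start the 6 near probes swung widely, with 0.83, -0.52 and -1.09 before it and -0.81, 1.01 and 0.75 behind it. Their mean of 0.03 ± 0.93 (SD, n = 6 probes) hides that swing. Mir615 lies within Hoxc5, where the 12 probes behind the start had a median of 0.33.

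The other 4 genes had no high window by gene symbol. With probes that name a member by accession alone also counted, Hoxc11 (1.64) and Hoxc6 (1.14) had one, shared with Hoxc10 and Hoxc5. Hoxc8, a classical regulator of the brachial and thoracic region, came closest with 0.96, centred 879 bp before its start, where only 1 of the 3 probes was itself above 1. Hoxc6, its neighbour on the 3′ side, reached 0.72, centred 3764 bp before the start. No probe named for Hoxc6 lies between -2502 and -397 bp from its start, so a high window there would not have been seen. Hoxc13, which is known for its role in hair and nail, reached 0.69, centred 3069 bp before the start. Hoxc11 had the lowest maximum of the cluster, 0.60, centred 112 bp behind its start, and in the main measure it was the only gene of the 8 whose highest window lay within 500 bp of the start. With normexp that place moved to 1753 bp behind the Hoxc11 start, while the highest windows of Hoxc5 and Hoxc13 lay within 500 bp of theirs.

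The order ran from Hoxc10 and Hoxc9 through Hoxc12, Hoxc5, Hoxc8, Hoxc6 and Hoxc13 to Hoxc11. The step of 0.36 between Hoxc9 and Hoxc12 was below the combined error of their median probes (0.38), and the other 6 steps, from 0.03 to 0.24, were below combined errors of 0.31 to 0.37. No neighbours in this order can therefore be ranked.

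**Figure D2:**
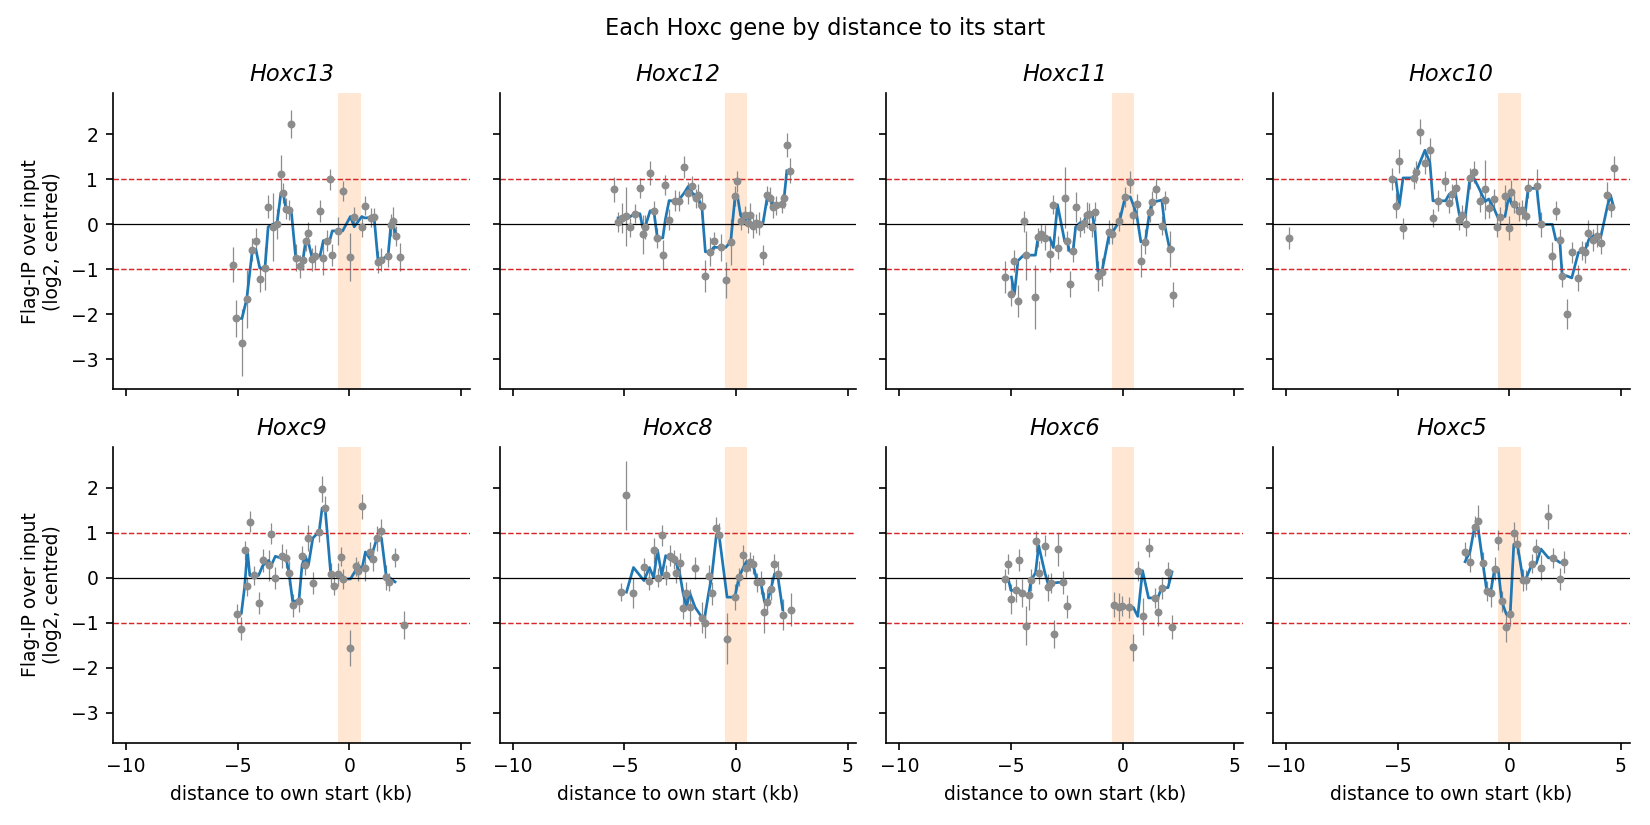
Flag-IP over input (log2, centred) for each of the 8 measured genes against distance in kb from its own start, negative before it. Points are probes with the scanner error as bars, the line is the 3-probe median, dashed lines mark 1 and -1, and the shaded band is the 500 bp on either side of the start; no line reaches 1 inside a band.

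Low windows were found in Hoxc13, Hoxc11 and Hoxc10. Hoxc13 held the lowest, -2.09 at chr15:102743943-102744379, centred 5076 bp before its start at the outer end of the tiled region. Its probes read -0.90 ± 0.38, -2.09 ± 0.41 and -2.63 ± 0.74, with Flag-IP signals of 135, 98.6 and 30.6 against input signals of 239, 401 and 180. All 3 probes were faint, and the last was not well above background in a channel, so its value is only a bound. With such probes left out the lowest Hoxc13 window was -0.90, and with the trend of the ratio with brightness removed it was -0.75, neither of which is a low call.

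Hoxc11 reached -1.55 at chr15:102777550-102777894, centred 4850 bp before its start, from probes of -1.55 ± 0.27, -0.81 ± 0.25 and -1.70 ± 0.36 that were all well above background. A second low stretch before Hoxc11, at chr15:102781286-102781989, reached -1.05. With the brightness trend removed, the lowest window was -0.73 for Hoxc11 and -0.86 for Hoxc10, and no low window was left in the cluster. The part of brightness in the low windows was otherwise not tested.

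Over all genes, high windows were more frequent at gene starts than farther away, and at the Hoxc starts there were none. This difference was not tested. No such count was made for the other Hox clusters, so the lack of high windows is not shown to be particular to Hoxc. None of the 40 Hoxc windows within 500 bp of a start was high, and none was low; their values ran from -0.81 to 0.75. Among all genes 13.4% of 75853 such windows were high. Farther than 500 bp before the start, 13 of 176 Hoxc windows (7.39%) were high, against 4.42% of 199484 windows of all genes. Farther than 500 bp behind the start, 1 of 89 Hoxc windows was high, against 6.27% of 155598 for all genes. This split by position was made after the values had been seen.

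The highest window of a gene lay more than 500 bp before its start in 6 of the 8 Hoxc genes, against 32.3% of all genes. It lay within 500 bp of the start in 1 of the 8, against 36.2% of all genes. Hoxc windows are also placed differently, with relatively more of them far before the start. In Hoxc 40 windows lay within 500 bp of a start, 176 farther before it and 89 farther behind it. For all genes these numbers were 75853, 199484 and 155598. The comparison of places does not take this into account. The place of the highest window depends on the processing: it lay more than 500 bp before the start in 3 of the 8 genes with normexp background correction and in 4 with the brightness trend removed, and within 500 bp in 2 and 0 genes. The count of 0 high windows near Hoxc starts was the same under each of the 11 alternatives for which it was computed. The share over all genes was not stable: it was 13.4% in the main measure, 20.8% with normexp and 7.30% with the brightness trend removed. Several of the 11 leave Hoxc values unchanged by design, such as the deposited log10 ratios and the keeping of outlier probes. The count of 13 before the starts fell to 3 with normexp background correction, where the share in Hoxc genes (1.70%) was below that of all genes (5.40%), and with the mean of 3 probes it was 6 (3.41% against 3.92%). Which share is larger before the starts therefore depends on the background treatment and on how a window is formed.

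By distance, probes in the 500 bp before a start had a mean of -0.19 ± 0.66 over 19 Hoxc probes, against 0.22 ± 0.88 over all genes (SD over probes). In the first 500 bp behind the start the means were 0.10 ± 0.73 over 22 Hoxc probes and 0.39 ± 0.76 over all genes. Between -4000 and -2000 bp from the start the order was the other way, with 0.15 ± 0.70 over 75 Hoxc probes against -0.29 ± 0.90 over all genes. These differences were not tested, since the probes of each gene share 1 sample. The 41 Hoxc probes near a start had a median Flag-IP signal of 765 and a median input signal of 673, against 1401 and 949 over all genes; the part of this lower brightness in the difference was not tested.

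**Figure D3:**
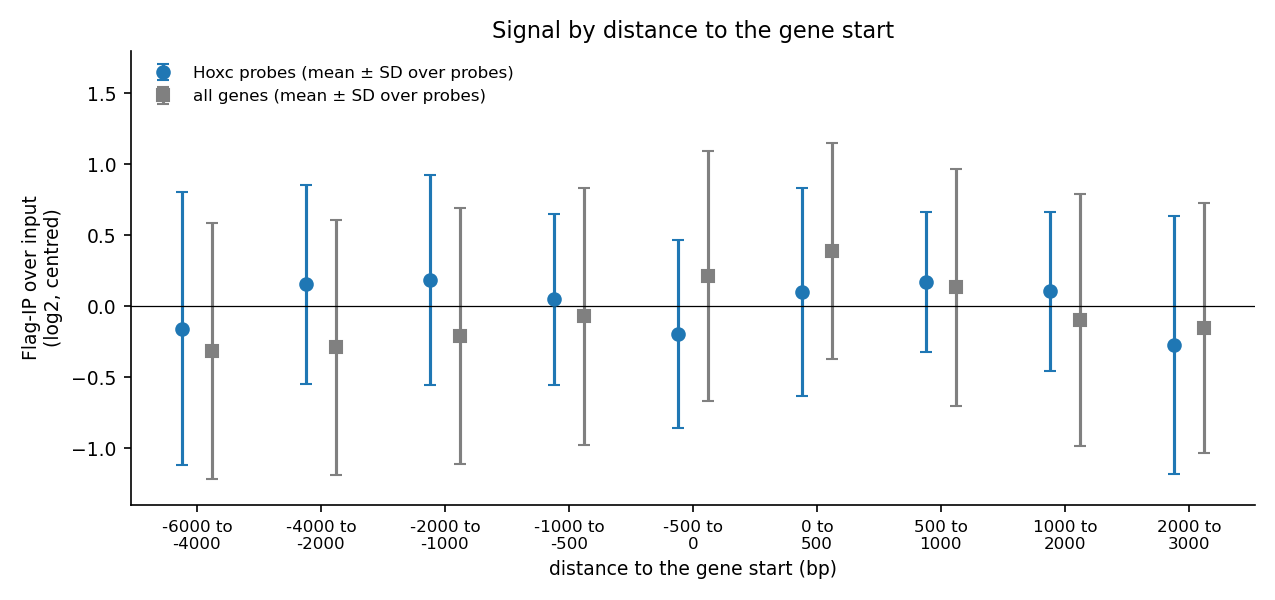
Mean Flag-IP over input (log2, centred) by distance to the gene start in bp, for Hoxc probes (circles, left) and probes of all genes (squares, right), with bars of 1 SD over probes. The all-gene mean peaks at 0.39 in the first 500 bp behind the start, where Hoxc probes average 0.10, and Hoxc probes average -0.19 in the 500 bp before it and -0.27 in the bin farthest behind it.

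Gene by gene, the mean of the probes within 500 bp of the start was above 0 in 5 of the 8 Hoxc genes, against 73.2% of 16237 genes. How these stand to each other depends on the processing. The Hoxc count was 7 with the brightness trend removed, against 68.0% of genes. It was 6 with normexp (78.1% of genes) and 6 with probes well above background (74.2% of genes). The difference was not tested. Hoxc11 followed Hoxc10 with 0.32 ± 0.45 (SD, n = 5 probes), rising from -0.21 and 0.07 before the start to 0.60, 0.93 and 0.21 behind it. These means were higher than those of 52.7% of genes for Hoxc10 and 49.8% for Hoxc11, so even the highest of the cluster were in the middle of the array. Hoxc13 and Hoxc12 averaged 0.06 ± 0.74 (n = 3 probes) and 0.03 ± 0.78 (n = 6 probes). Hoxc8 averaged -0.21 ± 0.72 (n = 5 probes), with a dim probe of -1.35 in front.

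Hoxc6 stood lowest at its start. Its 5 probes within 500 bp read -0.60 ± 0.28, -0.64 ± 0.31, -0.62 ± 0.23, -0.65 ± 0.23 and -1.54 ± 0.31 (scanner error). All 5 were below 0 by more than their error, and none was dim. Their mean of -0.81 ± 0.41 (SD, n = 5 probes) was higher than that of only 6.49% of genes. The mean stayed below 0 in each alternative, several of which could not change it, and was -0.38 with the brightness trend removed. Of all 31 Hoxc6 probes, 9 were above 0.

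Over whole genes, the median of all probes was highest in Hoxc10 (0.35, 53 probes) and Hoxc5 (0.34, 23 probes), followed by Hoxc9 (0.26, 41 probes) and Hoxc12 (0.23, 47 probes). It was near 0 in Hoxc8 (0.02, 39 probes) and below 0 in Hoxc11 (-0.19, 42 probes), Hoxc6 (-0.28, 31 probes) and Hoxc13 (-0.36, 43 probes). The median was 0.11 over the 226 probes of Hoxc9 to Hoxc13 and -0.03 over the 93 probes of Hoxc5 to Hoxc8. Neighbouring Hoxc probes correlated at 0.41 over 312 pairs, against 0.59 over 448579 pairs on both arrays; neighbours lie a median of 168 bp apart and may sit on the same DNA fragments.

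The authors' deposited scanner output marks probes whose ratio differs from 1 beyond the scanner's error. At its p-value limit of 0.01 it had 69 of the 319 Hoxc probes (21.6%) with more Flag-IP than input and 34 (10.7%) with less. Over all probes of array 2 the shares were 23.5% and 20.6%. These p-values come from 1 hybridisation and say nothing of other cultures.

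Among the Hox clusters, Hoxc stood between Hoxb and the other 2 in the main measure. A highest window of at least 1 was found in 4 of 8 Hoxc genes, 8 of 10 Hoxa genes, 1 of 7 Hoxb genes and 6 of 8 Hoxd genes. The share over all genes was 42.6%. Hoxa7, Hoxb2, Hoxb7, Hoxb8 and Hoxd8 had no windows. The Hoxc count itself was 2 with normexp and 2 with 5-probe windows. The median of the highest windows was 1.05 in Hoxc, 1.27 in Hoxa, 0.81 in Hoxb and 1.26 in Hoxd, against 0.90 over all genes. Hoxa and Hoxd lie on array 1 and Hoxb and Hoxc on array 2, so array and cluster cannot be fully told apart. Hoxb4 itself, the gene of the tagged protein, reached 0.66, close to the lower Hoxc genes. Near-start means of the other clusters ran from -0.90 in Hoxd4 to 0.63 in Hoxd12, against -0.81 in Hoxc6 to 0.36 in Hoxc10. Low near-start means were thus not particular to Hoxc.

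Paralogs, the genes of the same number in different clusters, had a wide range of highest windows. In group 10, Hoxc10 (1.64) stood beside Hoxd10 (1.56) and above Hoxa10 (1.04). In group 9, Hoxc9 (1.55) lay below Hoxd9 (1.76) and above Hoxa9 (1.13) and Hoxb9 (1.00, just under the call). In group 6 the Hoxc gene was lowest, with Hoxc6 at 0.72 and its paralogs Hoxa6 at 1.78 and Hoxb6 at 1.56, the highest genes of their clusters. Hoxc13 (0.69) and Hoxc11 (0.60) were below Hoxa13 (1.35), Hoxd13 (1.74), Hoxa11 (1.25) and Hoxd11 (1.18), while Hoxb13 (0.81) was near Hoxc13. Hoxc5 (1.14) lay between Hoxa5 (1.44) and Hoxb5 (0.83), and Hoxc12 (1.18) was below Hoxd12 (1.33). These are single values, with a median probe error of 0.24 over Hoxc probes. A difference between windows carries the error of both, which was 0.31 to 0.38 for neighbours in the Hoxc order. Differences of that size cannot be told from measurement error.

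**Figure D4:**
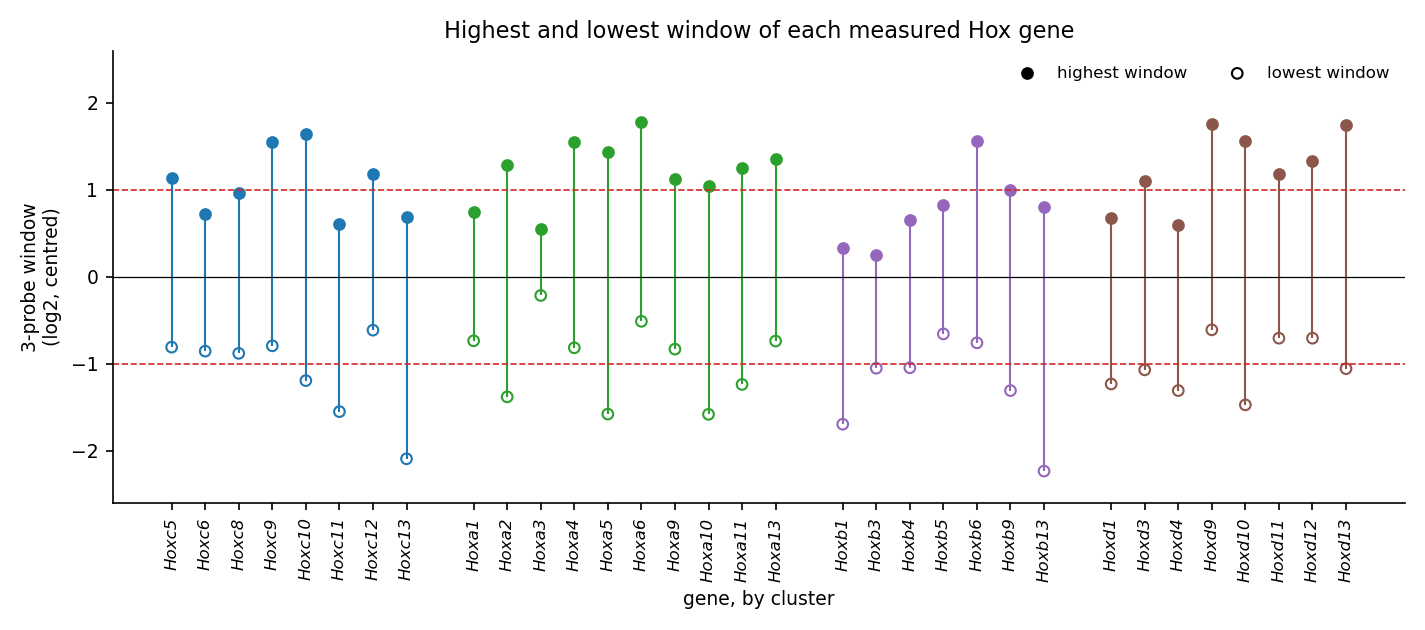
Highest (filled) and lowest (open) 3-probe window of each measured Hox gene (log2, centred), with Hoxc at the left, then Hoxa, Hoxb and Hoxd; dashed lines mark 1 and -1. In Hoxc 4 of 8 filled points lie above 1, led by Hoxc10 at 1.64, and the lowest open point is Hoxc13 at -2.09.

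Beyond the cluster, the nearest genes with windows were Calcoco1, 189 kb before the Hoxc13 side, and Smug1, 145 kb past Hoxc5. Their highest windows were 0.51 and 1.36 and their lowest were -0.89 and -0.60.

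How firmly each gene's call holds depends on the background treatment. Hoxc10 (1.24 to 1.71) and Hoxc9 (1.03 to 1.62) had a highest window above 1 under all 12 alternatives. Several of these could not change a Hoxc value. The deposited log10 ratios are the same data, and no Hoxc probe was an outlier or named more than 1 member by symbol. By accession, some probes also belong to a second member. With the brightness trend removed, the highest Hoxc9 window (1.45) was another one, centred 1233 bp behind the start, and it was above that of Hoxc10 (1.39). With normexp the highest Hoxc9 window (1.31) was also above that of Hoxc10 (1.24). Hoxc12 lost the call under 2 of the 12, normexp background correction (0.84) and 5-probe windows (0.70). Hoxc5 lost it under 5 of the 12, with values down to 0.58. With the brightness trend removed Hoxc13 gained a window of 1.75, centred 3244 bp before its start, in which 2 of the 3 probes were dim. With normexp, Hoxc10 ranked above 66.2% of genes and Hoxc9 above 70.9%, against 90.6% and 87.9% in the main measure.

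**Figure D5:**
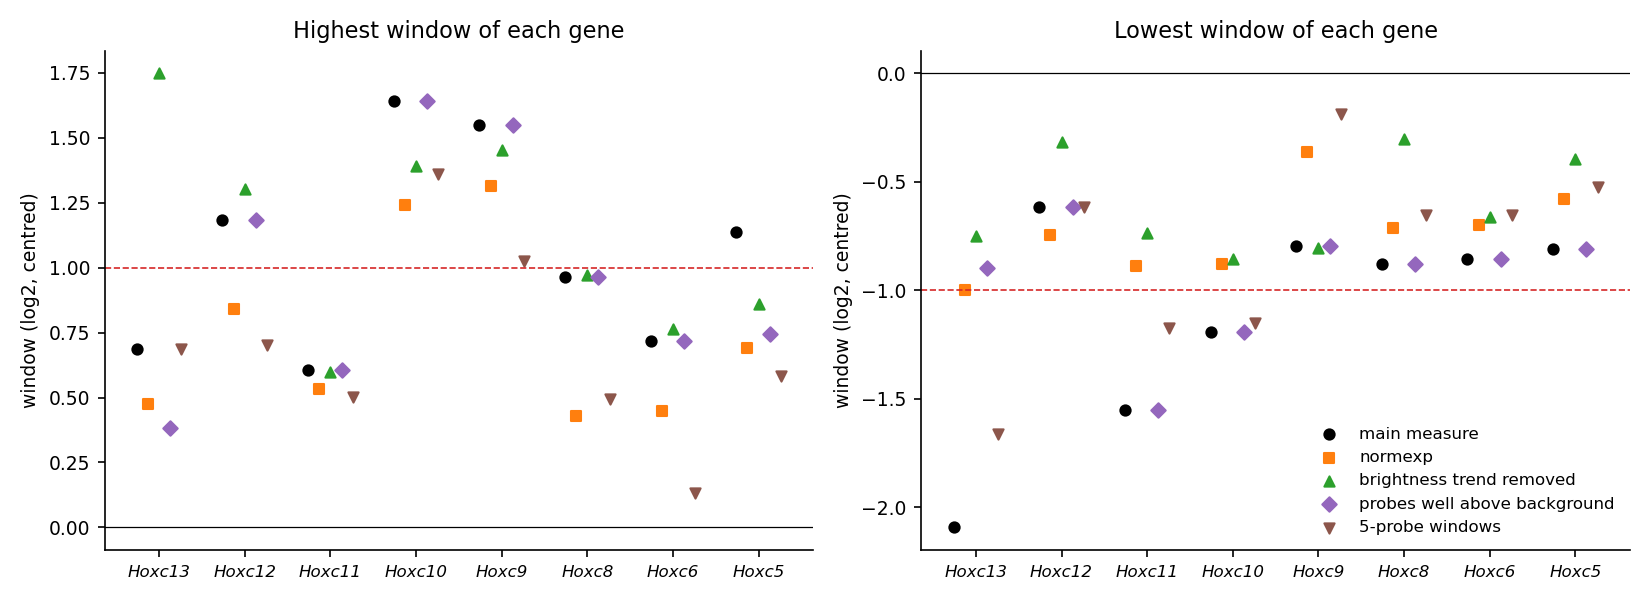
Highest (left panel) and lowest (right panel) window of each Hoxc gene (log2, centred) in the main measure and under 4 alternatives; dashed lines mark the call levels. Hoxc10 and Hoxc9 stay above 1 with every symbol, Hoxc12 and Hoxc5 cross it, and the low calls of Hoxc13, Hoxc11 and Hoxc10 are lost once the brightness trend is removed.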

How the data were processed

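The values start from the authors' deposited scanner files of 2 Agilent promoter arrays, made with Feature Extraction 10.1.1.1 per the file headers. The deposited processed intensity of each channel (red, Cy5, Flag-IP; green, Cy3, input; dyes per the labels) is background-subtracted and dye-normalized there; DNA had been amplified before labelling, per the labels' protocols. Flag-IP over input was taken as log2, and the median of each array's probes without outlier marks was subtracted, with no loess. The authors' deposited value table holds the same ratio as log10, uncentred, with medians of 0.0181 and 0.0207, and no probe differed by over 0.001 log2. The deposited p-value of each probe is the scanner software's. The deposited expression score of 6 arrays was not used.

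A window is the median of 3 probes whose consecutive starts lie at most 1000 bp apart. No probe of the cluster was an outlier or saturated. Named genes are all 9 members, with the highest and lowest of the other Hox genes and the flanking genes. The members and lists were chosen with earlier results of these data known. Alternatives were normexp (offset 50), other windows, filters, centring and a lowess brightness trend (span 0.3). The window code was tested on simulated data. Python 3.11.15, pandas 2.3.3, statsmodels 0.14.6, R 4.3.3 and limma 3.58.1 were used. Beyond the scanner error, the number of arrays, the choice of processing and the lack of an untagged control limit these values. With 1 sample for each probe, no test was run.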

Additional observations from a re-analysis of the deposited data

How the results depend on the processing

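The highest window of each gene stayed above 0 and the lowest below 0. These windows are picked anew in each setting, so their sign could hardly change, and it does not follow the called windows. Some near-start means did change sign: that of Hoxc8 ran from -0.21 to 0.08 and that of Hoxc9 from -0.14 to 0.02. In all, 5 to 7 of the 8 genes had a near-start mean above 0, against 68.0% to 78.1% of all genes. With normexp background correction, 3 windows were high and 2 low (main measure 14 and 10), 2 genes had a high window and 1 a low one (4 and 3), and 3 high windows lay before a start (13). With 5-probe windows, 9 Hoxc windows were high (3.09%, against 5.15% of all windows) and 6 were low (2.06%, against 9.33%). At that width 2 Hoxc genes had a high window, against 28.4% of all genes. The mean of 3 probes gave 7 high Hoxc windows (2.30%, against 5.90% of all windows), 6 of them before a start. With the brightness trend removed, 20 windows were high, 0 were low and 0 genes had a low one. No centring gave 17 high (5.57%, against 7.70% of all windows) and 8 low (2.62%, against 10.3%). The median of Hoxc probes ran from -0.05 to 0.25. Across both arrays the share of high and low windows was itself 8.82% and 0.799% with normexp and 4.07% and 3.62% with the trend removed; the share of genes with a high and a low window was 51.2% and 6.84% with normexp and 34.7% and 28.8% with the trend removed. The Hoxc5 call was also lost with the mean of 3 probes (0.92) and with the trend removed (0.86), Hoxc8 passed it without centring (1.03), and lows under normexp were -0.89 for Hoxc11 and -0.88 for Hoxc10. Counting probes that name a member by accession alone, added after the data were seen, lent the Hoxc10 window to Hoxc11 (1.64) and the Hoxc5 window to Hoxc6 (1.14). That setting gave 6 genes with a high window, against 42.6% of all genes. The causes were not tested. No paired analysis was possible because each promoter probe has 1 sample and no test; the planned expression alternatives (scale, filter, replicate block, arrays left out) were not run, since no table pairs probe sets with genes. The annotation's genome build and the absence of an untagged control limit all positions and levels. Leaving out faint probes left 7 low windows and 2 genes with one.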
